A study of Mus musculus with 68 samples.

Results

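The genes described here are 10 members of the LIM family: the LIM homeodomain genes Isl1, Isl2, Lhx3, Lhx4, Lhx1 and Lhx5, the LIM-only genes Lmo1, Lmo3 and Lmo4, and the LIM-domain-binding gene Ldb2. They were chosen by symbol among the 19938 genes that the array annotation named by 1 symbol, and each was measured by 1 transcript cluster (the array's set of probes for a gene), so that all 10 of 10 members entered the comparisons. The series is a gain-of-function screen for determinants of phrenic motor neurons, the neurons that drive the diaphragm. Mouse embryonic stem cells (strain given as C57/BL6) were grown as embryoid bodies, patterned from day 2 with retinoic acid and a Smoothened agonist, and dissociated on day 5, when motor neurons were enriched magnetically through the surface reporter CD2 or CD14. The enriched cells were cultured for 30 h, with doxycycline to switch on the 1 or 2 transgenes of a line. The labels of the parental lines H4 and E3 name no transgene. About 500 ng of total RNA was labelled for each of 68 Affymetrix gene arrays.

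The 45 CD2 arrays held YFP (4 arrays, in batches 1, 2 and 3 of the titles), Pou3f1 (4), the line labelled H4 parental (3) and, with 2 arrays each, Arid5b, Btbd3, Chd5, Hey1, Hoxa5, Hoxc6, Klf5, Klf6, Lhx3, Lhx3 (DN), Notch1 ICD (10), Notch1 ICD (30), Sfmbt2, Tox, Vwc2, Zbtb7c and Zic1. The 23 CD14 arrays held YFP (4, in batches 6 and 7) and, with 2 arrays each, Pou3f1, Flag;Pou3f1, Pou3f1 with Hoxa5, Pou3f1 with Hoxc6, Pou3f1 with Lhx3, Pou3f1 with Lhx3 (DN), NERT (10) and NERT (30), beside 1 array labelled E3 parental and 2 labelled E3 parental induced, alone in batch 0, which entered no comparison. The numbers 10 and 30 mark induction for the last 10 h or the whole 30 h of culture. YFP, an inert fluorescent protein, was the control named in the series design, so that controls carried the reporter, the patterning, the sort and doxycycline too. Batches 4 and 5 held no YFP array, and no CD2 YFP array was in batch 6. Nothing in the labels says whether arrays of a group came from separate cultures or whether a line was 1 clone, so what the p-values weigh is the spread among arrays, which may be technical.

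LIM homeodomain proteins are transcription factors that act in combinations. In the ventral spinal cord Isl1 and Lhx3 bind together through the cofactor LDB to switch on the motor neuron program, Lhx3 without Isl1 accompanies the V2 interneuron fate, and Lhx3 and Lhx4 are close relatives that are lost from most motor columns and kept in the medial column. Lhx1 and Lhx5 are relatives of each other that mark interneuron classes, and Lhx1 also marks motor neurons that project to the dorsal limb. LMO proteins consist of little more than LIM domains and compete with LIM homeodomain proteins for LDB, and Ldb2 is 1 of the LDB genes.

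Promoters of members were read from RefSeq (build GRCm38.p6), whose table held 12 promoters of 8 members, each from 250 bases before to 50 after a start; Lhx5 and Ldb2 were not matched. The 4 motifs searched, on both strands, were the POU octamer ATGCAAAT, the RBPJ site GTGGGAA through which Notch signals, the homeodomain core TAATTA and the E-box CATCTG. They were chosen for the Pou3f1, Notch1 ICD and Lhx3 transgenes and for proneural factors. The RBPJ letters were found in 2 of the 12 promoters, those of Isl2 and Lmo3, against 6.38% of all 32851 promoters. The homeodomain core was found in 2, which are overlapping promoters of Lmo1, against 5.29%, the E-box in 1 promoter of Lhx3, against 17.2%, and the octamer in 0, against 1.74%. A match is a description of the letters only. The promoters of the 3 members with the RBPJ letters or the homeodomain core, which relate to the Notch1 ICD and Lhx3 transgenes, are printed from 5′ to 3′ on the gene's strand, with the matching letters in capitals (in Isl2 the reverse complement of the RBPJ letters).
Isl2, chr9:55540899-55541198, plus strand: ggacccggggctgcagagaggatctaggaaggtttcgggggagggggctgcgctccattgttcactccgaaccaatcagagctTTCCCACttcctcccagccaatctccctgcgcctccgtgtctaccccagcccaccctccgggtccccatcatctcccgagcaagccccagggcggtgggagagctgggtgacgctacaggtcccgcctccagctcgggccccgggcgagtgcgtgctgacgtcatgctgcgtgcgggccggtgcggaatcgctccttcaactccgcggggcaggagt
Lmo1, chr7:109175158-109175457, minus strand: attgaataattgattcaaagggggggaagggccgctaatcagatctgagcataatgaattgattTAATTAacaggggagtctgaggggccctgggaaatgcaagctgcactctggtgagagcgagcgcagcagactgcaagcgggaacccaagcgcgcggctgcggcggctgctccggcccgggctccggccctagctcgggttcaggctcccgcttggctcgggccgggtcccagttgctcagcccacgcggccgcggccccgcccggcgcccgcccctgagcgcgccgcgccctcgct
Lmo3, chr6:138581919-138582218, minus strand: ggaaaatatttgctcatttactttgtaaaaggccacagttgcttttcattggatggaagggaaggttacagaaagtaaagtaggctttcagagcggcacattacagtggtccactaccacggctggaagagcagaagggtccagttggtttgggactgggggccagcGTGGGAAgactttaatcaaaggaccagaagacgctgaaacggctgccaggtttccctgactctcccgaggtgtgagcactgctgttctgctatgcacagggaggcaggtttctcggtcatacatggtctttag

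Values throughout are log2 expression values of the deposited table and differences between them. A difference is the batch-adjusted fitted value ± its standard error from limma over all 68 arrays, and a gene was called where its Benjamini-Hochberg adjusted p, over all 19938 genes of a comparison, was under 0.05. Among the induced genes, Pou3f1 and Hoxc6 were checked first. Hoxa5 and Lhx3 are given further on, and the other induced genes are not shown. Pou3f1 lay at 9.48 to 10.70 in the 4 Pou3f1 CD2 arrays against 8.39 to 8.69 in YFP. Against 8.31 to 8.48 in CD14 YFP it was 9.14 to 10.33 in the 4 lines with Pou3f1 and a second gene, and called higher in each, but only 8.76 to 9.07 with Pou3f1 alone and 8.86 to 9.03 with Flag;Pou3f1, where it was not called. It was also called higher with Notch1 ICD (30), which has no Pou3f1 transgene, at 9.05 to 9.79. Hoxc6 lay at 9.19 to 9.41 in the Hoxc6 line against 6.34 to 7.00. The 7 measured motor neuron markers had a mean of 11.57 to 11.80 in the 8 YFP arrays, with the acetylcholine transporter Slc18a3 at 12.80 to 13.24 and the pluripotency gene Pou5f1 at 5.83 to 6.24. The cell cycle gene Mki67 ranged from 9.26 to 11.13 in the same arrays. In these enriched populations a lower value can mean fewer cells of a type or less RNA per cell, which cannot be told apart. In batch 4, 6 of 9 arrays (Hoxa5, Chd5, Arid5b, H4 parental and both Pou3f1 arrays) stood apart: Hoxa5 was 12.14 to 12.75 there, against 9.32 to 10.59 in the arrays of the same 5 lines in other batches. The Hoxa5 line itself read 12.75 in batch 4 and 10.59 in batch 5. In batch 4 its transgene can therefore not be told apart from the high Hoxa5 level of the other lines.

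Lmo1 and Lmo3 were called in the most lines, and Lhx5 in the fewest. Over the 27 lines, 24 of the 270 pairs of a member and a line were higher than YFP, 19 were lower and 227 were not called, and 2 of the 24 are Lhx3 itself in lines that carry an Lhx3 transgene. Lmo3 was higher in 8 lines and lower in 0, Lmo1 lower in 9 and higher in 0, Ldb2 higher in 5 and lower in 0, and Isl1 higher in 1 and lower in 4. Isl2 was lower in 4 and higher in 0, Lhx1 higher in 3, Lhx3 higher in 3 and lower in 1, Lmo4 higher in 2, Lhx4 higher in 1 and lower in 1, and Lhx5 higher in 1. The 27 lines include H4 parental, whose label names no transgene. These counts compare lines with only 2 YFP groups of 4 arrays, so the lines are not independent of each other.

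The members called sat in 13 lines. Pou3f1 with Hoxc6 called 6 of 10 members, against 8.98% of all genes, and Lhx3 (DN) called 6, against 4.09%. In 3 lines 5 members were called: in Pou3f1 with Lhx3 (DN), against 4% of all genes, in Notch1 ICD (30), against 6.07%, and in NERT (30), against 4.7%. Pou3f1 with Lhx3 called 4, against 3.94%, Lhx3 called 3, against 3.81%, and Pou3f1 on CD2 called 3, against 2.09%. Pou3f1 with Hoxa5 called 2, against 5.92%, and 1 member each was called in Pou3f1 on CD14, against 0.306%, in Flag;Pou3f1, against 2.44%, in Hoxc6, against 2.35%, and in Notch1 ICD (10), against 2.96%. The members were picked with results of these data known, so the counts describe them and are no test, and 1 or 2 of 10 is too small a count to set against a share of a few percent.

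In the other 14 lines limma called 0 of 140 pairs, and the fit with a trend and robust estimates also called 0, with 17 pairs at an unadjusted p under 0.05. Of these 140 differences, 125 lay within 0.5 of 0, and they ran from -1.24 for Lmo3 in Klf5 to 1.19 for Lmo3 in Zic1. The share of all genes called there was 0.01% in Arid5b, 0.0451% in Btbd3, 0% in Chd5, 0.00502% in H4 parental, 0.361% in Hey1, 0% in Hoxa5, 0.311% in Klf5, 0.471% in Klf6, 0.416% in NERT (10), 0% in Sfmbt2, 0.0602% in Tox, 0.015% in Vwc2, 0.0251% in Zbtb7c and 0.291% in Zic1. Few genes of any kind were called in these lines, so the absence of member calls says little about the members.

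**Figure D1:**
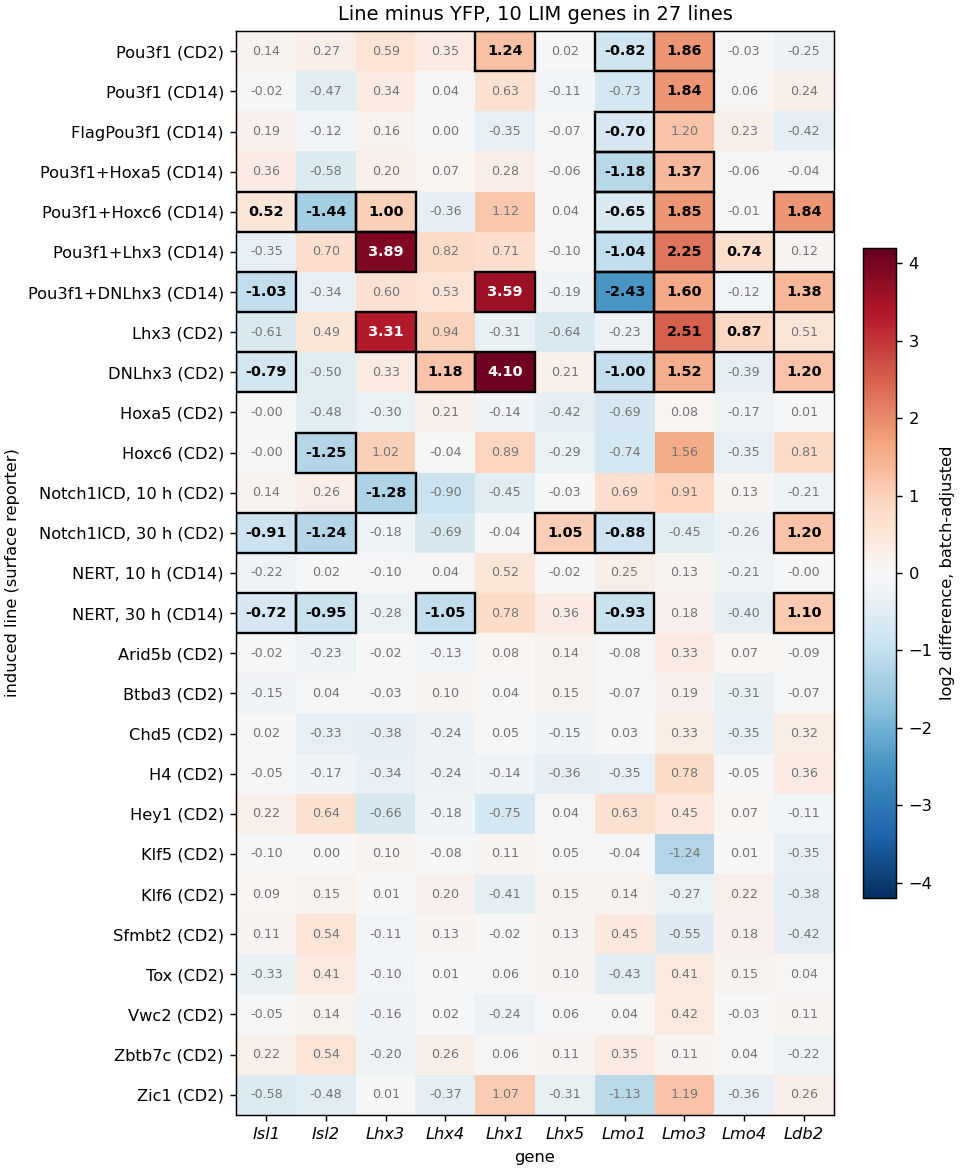
Batch-adjusted log2 difference from YFP of the same reporter for the 10 genes (columns) in 27 lines (rows, reporter in brackets); red is higher and blue lower than YFP, and boxed bold values have an adjusted p under 0.05. Of the 7 rows with Pou3f1, 6 are boxed for Lmo1 and 6 for Lmo3, while the lower 12 rows hold none.

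Isl1, which starts the motor neuron program in postmitotic cells, fell with Lhx3 (DN) and with the Notch-related transgenes after 30 h. In the 4 CD2 YFP arrays its values were 12.46, 12.66, 12.69 and 12.89. They were 11.83 and 11.68 with Lhx3 (DN) and 11.45 and 11.83 with Notch1 ICD (30), all below each YFP array. The falls were by 0.79 ± 0.14 (adjusted p = 0.000164) and by 0.91 ± 0.14 (adjusted p = 6.91e-06), about 1.73-fold and 1.88-fold. On CD14, where YFP arrays read 12.74, 12.80, 12.88 and 12.97, Isl1 was 11.96 and 11.84 with Pou3f1 and Lhx3 (DN) and 12.13 and 11.98 with NERT (30). These were falls by 1.03 ± 0.15 (adjusted p = 4.42e-06) and by 0.72 ± 0.15 (adjusted p = 0.00123), again with no overlap. Among all genes, the arrays did not overlap those of YFP, in either direction, for 16.3% with Lhx3 (DN), 21.2% with Notch1 ICD (30), 28.8% with Pou3f1 and Lhx3 (DN) and 49.1% with NERT (30), so the lack of overlap alone says little. The NERT (30) call was lost without its replicate 2 (a fall by 0.64, adjusted p = 0.0585).

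Isl1 rose only slightly where it rose. With Pou3f1 and Hoxc6 it was 13.42 and 13.47, higher than YFP by 0.52 ± 0.15 (adjusted p = 0.0184), a call lost without any 1 of the 4 arrays of batch 6 that define it (adjusted p 0.0664 to 0.172). With the Lhx3 transgene alone Isl1 was 12.07 and 12.53, a fitted difference of -0.61 ± 0.21 that was not called (adjusted p = 0.087), and with Pou3f1 and Lhx3 it was 12.40 and 12.43 (-0.35 ± 0.15, adjusted p = 0.252). In the other 20 lines, Pou3f1 alone among them, Isl1 was not called.

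Where Isl1 fell, most other motor neuron genes fell too. Of the 7 measured motor neuron markers, of which Isl1 is 1, 6 were lower with Lhx3 (DN), 7 with Pou3f1 and Lhx3 (DN), 6 with Notch1 ICD (30) and 7 with NERT (30). Their median differences were -0.88, -1.03, -0.68 and -0.72, against medians of -0.019, -0.0079, -0.031 and -0.059 over all genes. With Lhx3 (DN) the neurofilament gene Nefm fell by 1.07 ± 0.11, the acetylcholine-synthesising enzyme gene Chat by 0.94 ± 0.13 and the peripherin gene Prph by 0.88 ± 0.15. Of the 8 genes listed downstream of Isl1 with Lhx3, which include Isl2, 5 were lower with Lhx3 (DN), 6 with Pou3f1 and Lhx3 (DN), 7 with Notch1 ICD (30) and 7 with NERT (30). The mean of the 7 markers was 10.62 to 11.14 in the 8 arrays of these 4 lines, against 11.57 to 11.80 in YFP.

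Isl2, which follows Isl1 in most motor neurons, fell with the Notch-related transgenes and with Hoxc6, and did not pass the threshold with either form of Lhx3 (DN). With Notch1 ICD (30) it was 10.36 and 10.81, against 11.34, 11.60, 11.63 and 11.77 in YFP, a fall by 1.24 ± 0.21 (adjusted p = 7.55e-05). With NERT (30) it was 11.71 and 11.53, against 12.50, 12.51, 12.59 and 12.63 in CD14 YFP, a fall by 0.95 ± 0.23 (adjusted p = 0.00796) that was lost without YFP replicate 1 of batch 7 or NERT (30) replicate 2 (falls by 0.86 to 0.89, adjusted p 0.110 to 0.144). Isl2 was thus lower in both lines with Notch-related transgenes for 30 h. Its promoter holds the RBPJ letters printed above, but whether they bear on this fall was not tested.

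Isl2 was lower with Hoxc6 in both reporters. With Pou3f1 and Hoxc6 it was 11.16 and 11.05, below all CD14 YFP arrays (44.3% of all genes lacked overlap there). That was a fall by 1.44 ± 0.23 (2.71-fold, adjusted p = 2.52e-05). With Hoxc6 alone Isl2 was 10.88 and 11.56, against 11.34 to 11.77 in CD2 YFP, with overlap. That fitted fall by 1.25 ± 0.31 (adjusted p = 0.0201) rests on batch 5, which has no YFP array: it was by 0.36 without batch terms (adjusted p = 0.604), and by 0.90 without Hoxc6 replicate 2 (adjusted p = 0.163).

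With the Lhx3 transgene Isl2 was high, though not called against YFP. It was 13.26 and 13.29 with Pou3f1 and Lhx3 (0.70 ± 0.23, adjusted p = 0.0806). These lay above all 4 CD14 YFP arrays, where 29.7% of all genes lacked overlap. With Lhx3 alone Isl2 was 13.04 and 13.11, the highest of all CD2 arrays. Its fitted difference from YFP was 0.49 ± 0.33 (adjusted p = 0.373), after batch terms for batches 5 and 6, which hold no CD2 YFP array.

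Lhx3, the partner of Isl1, was high in its own lines and otherwise near the YFP level in most lines. YFP arrays read 7.69, 7.72, 7.75 and 7.86 on CD2 and 7.67, 7.77, 7.84 and 7.87 on CD14. With the Lhx3 transgene values were 11.38 and 11.03, and with Pou3f1 and Lhx3 11.65 and 11.64, differences of 3.31 ± 0.40 (adjusted p = 2.02e-06) and 3.89 ± 0.28 (adjusted p = 1.32e-12). These check the labels; whether the probes read the transgene, the endogenous gene or both is not given. With Lhx3 (DN) Lhx3 was 7.94 and 8.26 (0.33 ± 0.26, adjusted p = 0.586), and with Pou3f1 and Lhx3 (DN) 8.39 and 8.45 (0.60 ± 0.28, adjusted p = 0.372), so that form of the transgene was not called on this transcript cluster. The labels do not state which part of Lhx3 it carries.

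Lhx3 was also called in 2 lines without an Lhx3 transgene. With Pou3f1 and Hoxc6 Lhx3 was 8.84 and 8.80, above all YFP arrays, where 44.3% of all genes lacked overlap with YFP. This was a rise by 1.00 ± 0.28 (adjusted p = 0.0173). The call was lost without any 1 of the 4 arrays that define it (0.95 to 1.05, adjusted p 0.0776 to 0.140). In the Hoxc6 line Lhx3 was 8.67 and 9.34 (1.02 ± 0.38, adjusted p = 0.161), and Hoxa5 was 11.80 and 12.07 in these arrays. With Notch1 ICD (10) Lhx3 was called lower by 1.28 ± 0.29 (adjusted p = 0.00771), yet its arrays read 8.11 and 7.75, within or above the range of the CD2 YFP arrays. That difference became 0.29 (adjusted p = 0.773) without the 6 batch 4 arrays that stand apart and 0.18 (adjusted p = 0.929) without batch terms, and the call was also lost without Notch1 ICD (10) replicate 2 (adjusted p = 0.170).

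The 6 batch 4 arrays stood apart from the other arrays of their lines in Lhx3 too. Lhx3 was 8.74 to 10.42 (median 9.11) there, 7.45 to 7.94 in the 7 arrays of the same lines in other batches, and 7.75 to 8.11 in the other 3 batch 4 arrays, with no overlap. Lhx1 was 8.42 to 10.64 against 7.53 to 8.46, Lhx4 10.18 to 10.95 against 9.51 to 10.70, and Lmo1 8.31 to 9.46 against 9.30 to 10.65. The highest Lhx3 values, 10.02 and 10.42, were the 2 Pou3f1 arrays, whose line read 7.93 and 7.88 in batches 1 and 2. Whether these cells differed in axial level, culture or handling was not tested.

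**Figure D2:**
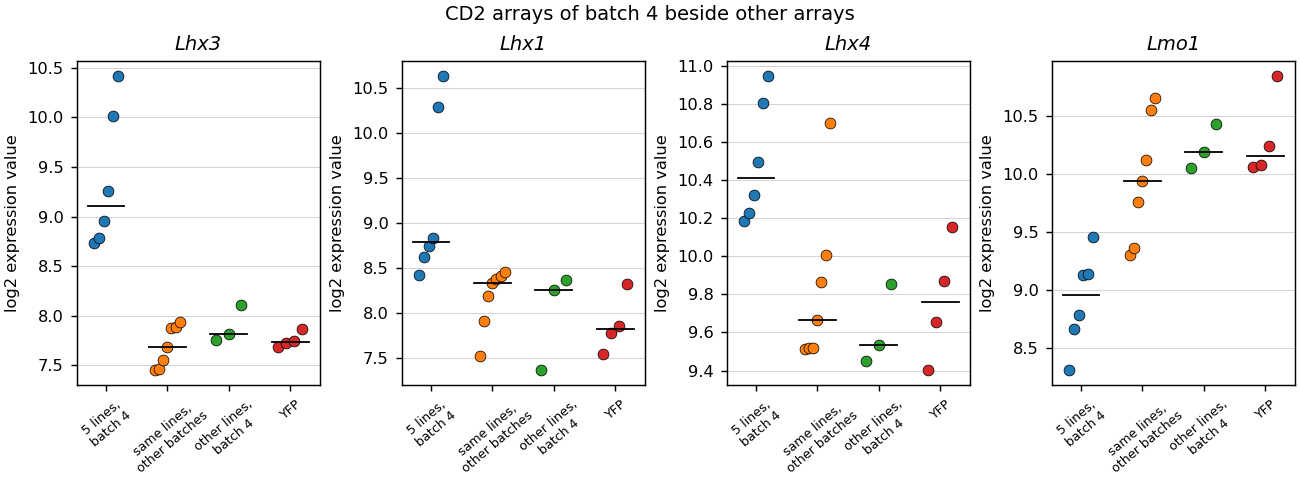
Log2 expression of Lhx3, Lhx1, Lhx4 and Lmo1 in CD2 arrays, 1 point per array with a line at the median: the 6 arrays of 5 lines in batch 4, the 7 arrays of the same lines in other batches, the 3 other batch 4 arrays, and the 4 YFP arrays. For Lhx3 the 6 arrays lie at 8.74 to 10.42, above all the others shown.

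Lhx4 was higher with Lhx3 (DN) and lower with NERT (30). With Lhx3 (DN) it was 11.23 and 10.98, against 9.40, 9.65, 9.87 and 10.15 in YFP, a rise by 1.18 ± 0.25 (2.27-fold, adjusted p = 0.00225) that narrowly missed the threshold without Lhx3 (DN) replicate 1 (1.06, adjusted p = 0.0529). With NERT (30) it was 9.86 and 9.66, below the CD14 YFP arrays at 10.05 to 10.81 (49.1% of all genes lacked overlap there). This was a fall by 1.05 ± 0.27 (adjusted p = 0.0139). That call was lost without NERT (30) replicate 2 or either batch 7 YFP array (adjusted p 0.102 to 0.198). Lhx4 was also high with Lhx3, at 11.27 and 11.18 in the Lhx3 line (0.94 ± 0.38, adjusted p = 0.142) and 11.63 and 11.62 with Pou3f1 and Lhx3 (0.82 ± 0.27, adjusted p = 0.0836), not called against YFP.

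**Figure D3:**
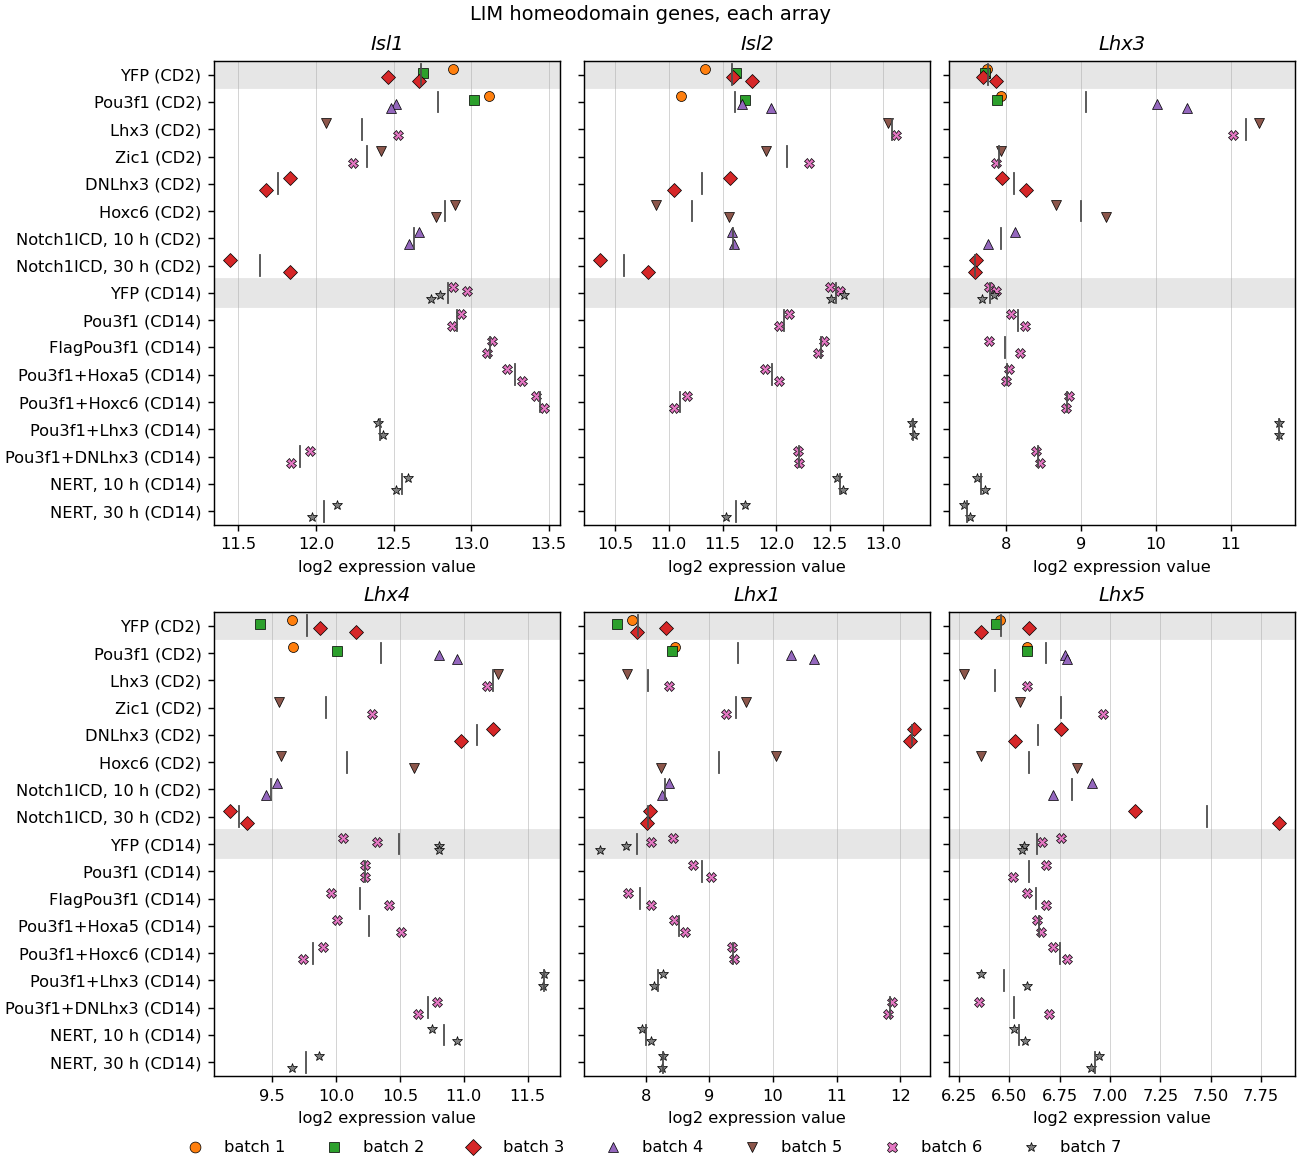
Log2 expression of the 6 LIM homeodomain genes in each array of 17 groups, with symbols and colours for batches, a vertical line at each group mean and the YFP groups shaded. Lhx1 lies at 11.81 to 12.22 in the 2 lines with Lhx3 (DN), apart from all other groups.

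Lhx1, an interneuron gene that also marks a class of limb motor neurons, had the largest fitted difference from YFP of the 270, with Lhx3 (DN). It was 12.22 and 12.15 there, against 7.54, 7.78, 7.86 and 8.32 in the YFP arrays, higher by 4.10 ± 0.36 (17.1-fold, adjusted p = 1.87e-10). With Pou3f1 and Lhx3 (DN) it was 11.88 and 11.81, against 7.28, 7.70, 8.08 and 8.43, higher by 3.59 ± 0.38 (12.0-fold, adjusted p = 1.05e-08). Leaving out any array of these comparisons kept both calls. Both pairs of arrays lie more than 3 log2 units above the highest YFP array of their reporter. The Lhx3 line read 7.70 and 8.37, within or near the YFP range (-0.31 ± 0.55, adjusted p = 0.768).

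Other interneuron markers did not rise with Lhx1 as a group. With Lhx3 (DN), 0 of the 6 measured V0, V1 and V3 markers, 0 of the 7 V2 markers and 0 of the 7 dorsal interneuron markers were called. With Pou3f1 and Lhx3 (DN), 1 of 6, 1 of 7 and 0 of 7 were higher and none was lower. The V2 marker mean was 7.84 to 8.05 in the Lhx3 (DN) arrays, against 7.85 to 8.16 in CD2 YFP.

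Lhx1 was also called higher with Pou3f1 on CD2. On CD2 the 4 arrays read 8.46 and 8.42 in batches 1 and 2 and 10.29 and 10.64 in batch 4, against 7.54 to 8.32 in YFP, a fitted rise by 1.24 ± 0.31 (adjusted p = 0.0191). Against YFP of the same batches the first 2 arrays were higher by 0.68 and 0.87. Without the 6 batch 4 arrays the difference was 0.67 (adjusted p = 0.368), and the call was lost without Pou3f1 replicate 2 of batch 4 or the YFP array of batch 1 or 2 (1.05 to 1.32, adjusted p 0.0620 to 0.101). In the other lines with Pou3f1 on CD14 it was not called, with 9.35 and 9.40 beside Hoxc6 (1.12 ± 0.38, adjusted p = 0.06) and 8.74 and 9.02 with Pou3f1 alone (0.63 ± 0.38, adjusted p = 0.775).

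Lhx5, the relative of Lhx1, was called in 1 line in the fit over all arrays, Notch1 ICD (30). Its values there were 7.12 and 7.84, against 6.36, 6.43, 6.45 and 6.60 in YFP, a rise by 1.05 ± 0.16 (2.07-fold, adjusted p = 8.28e-06) kept without any 1 array. NERT (30) arrays read 6.95 and 6.91, above the CD14 YFP arrays at 6.56 to 6.76, where 49.1% of all genes lacked overlap. The difference of 0.36 ± 0.17 was not called (adjusted p = 0.261). In the fit on batch 7 alone it was called (adjusted p = 0.035). In 25 of 27 lines Lhx5 was within 0.5 of YFP, and in the Lhx3 line it differed by -0.64 ± 0.25 (adjusted p = 0.122). Lhx5 did not follow Lhx1 with Lhx3 (DN), at 6.76 and 6.53 (0.21 ± 0.16, adjusted p = 0.566). The signal of Lhx5 was low, with a mean of 6.59 over all arrays, above that of only 23% of genes. In CD2 YFP arrays the pluripotency gene Nanog read 6.55 to 6.87. A lack of change in Lhx5 at such levels therefore says little.

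Lmo1, a LIM-only gene, was the member most often lower. CD2 YFP arrays read 10.06, 10.07, 10.24 and 10.85, and CD14 YFP arrays 10.22, 10.45, 10.46 and 10.51. With Pou3f1 and Lhx3 (DN) Lmo1 was 7.93 and 8.12, a fall by 2.43 ± 0.19 (5.38-fold, adjusted p = 9.03e-12), and with Lhx3 (DN) alone 9.53 and 9.49, a fall by 1.00 ± 0.18 (adjusted p = 0.00033). With Pou3f1 on CD2 it was 9.30 and 9.36 in batches 1 and 2 and 8.79 and 8.31 in batch 4. All lay below YFP, where 8.27% of all genes lacked overlap. The fitted fall was by 0.82 ± 0.15 (adjusted p = 0.00135). The 6 batch 4 arrays that stand apart, which include lines without Pou3f1, read 8.31 to 9.46 for Lmo1. The promoter of Lmo1 printed above holds the homeodomain core and none of the other 3 motifs.

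All 7 lines with a Pou3f1 transgene had Lmo1 below the YFP level, and 6 of them were called. With Pou3f1 and Hoxa5 it was 9.32 and 9.24 (a fall by 1.18 ± 0.19, adjusted p = 0.000145), and with Pou3f1 and Lhx3 9.51 and 9.16 (by 1.04 ± 0.19, adjusted p = 0.000427). With Pou3f1 and Hoxc6 it was 9.79 and 9.82 (by 0.65 ± 0.19, adjusted p = 0.0267), and with Flag;Pou3f1 9.92 and 9.60 (by 0.70 ± 0.19, adjusted p = 0.044). Both of these last calls were lost without any 1 of the 4 arrays that define them (adjusted p 0.118 to 0.158 and 0.0798 to 0.392). With Pou3f1 alone on CD14 it was 9.75 and 9.71, not called (-0.73 ± 0.19, adjusted p = 0.114). Low Lmo1 was not limited to these lines. Over all 27 lines, these 7 included, its median difference from YFP was -0.43, with a range from -2.43 to 0.69. The Zic1 line, without Pou3f1, read 9.45 and 9.26 for Lmo1, not called against CD2 YFP.

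Lmo1 also fell with the Notch-related transgenes at 30 h. With Notch1 ICD (30) it was 9.51 and 9.77, a fall by 0.88 ± 0.18 (adjusted p = 0.00104), and with NERT (30) 9.48 and 9.40, a fall by 0.93 ± 0.19 (adjusted p = 0.00162). The first call was lost without Notch1 ICD (30) replicate 1 (a fall by 0.75, adjusted p = 0.0592) and the second without YFP replicate 1 of batch 7 (by 0.78, adjusted p = 0.0809). In the Lhx3 line Lmo1 was 10.29 and 10.22, inside the YFP range (-0.23 ± 0.28, adjusted p = 0.642).

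Lmo3, another LIM-only gene, rose in 6 of the 7 Pou3f1 lines and in both lines with Lhx3 or Lhx3 (DN) alone. CD2 YFP arrays read 7.78, 8.30, 8.32 and 8.64 and CD14 YFP arrays 7.62, 7.88, 8.63 and 9.23, a wide spread for this gene. Pou3f1 CD2 arrays read 10.90 and 10.82 in batches 1 and 2 and 9.06 and 8.94 in batch 4, higher than YFP by 1.86 ± 0.34 (3.62-fold, adjusted p = 0.000875). Against YFP of the same batch the first 2 were higher by 2.25 and 2.51. Pou3f1 CD14 arrays read 10.69 and 10.84 (1.84 ± 0.42, adjusted p = 0.0385), a call lost without any 1 of the 4 arrays that define it (1.54 to 2.14, adjusted p 0.104 to 0.683). Flag;Pou3f1 arrays, at 10.12 and 10.13, lay above all YFP arrays, where 30.4% of all genes lacked overlap with YFP. The rise was not called (1.20 ± 0.42, adjusted p = 0.129). The single E3 parental array of batch 6, whose label names no transgene, read 9.77 for Lmo3, also above all CD14 YFP arrays.

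No second transgene gave a called change of Lmo3 against Pou3f1 alone on CD14. Lmo3 was 10.16 and 10.43 with Pou3f1 and Hoxa5 (1.37 ± 0.42, adjusted p = 0.0447), 10.75 and 10.79 with Hoxc6 (1.85 ± 0.42, adjusted p = 0.00309), 9.97 and 10.03 with Lhx3 (2.25 ± 0.42, adjusted p = 0.000441) and 10.41 and 10.64 with Lhx3 (DN) (1.60 ± 0.42, adjusted p = 0.0177). The Hoxa5 call was lost without any 1 of its 4 arrays (adjusted p 0.102 to 0.343), the Hoxc6 call when the second batch 6 YFP array was left out (1.54, adjusted p = 0.0809), and the Lhx3 (DN) call without either of its arrays or that YFP array (adjusted p 0.0815 to 0.333). All 8 of these arrays lay above each YFP array, where 28.8% to 44.3% of all genes lacked overlap with YFP.

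Lmo3 also rose without Pou3f1. With Lhx3 (DN) it was 9.53 and 9.20 (1.52 ± 0.39, adjusted p = 0.018), a call lost without either of its arrays or YFP replicate 2 of batch 3 (1.36 to 1.68, adjusted p 0.0741 to 0.133). With Lhx3 it was 9.90 and 9.85, above all YFP arrays, where 20.3% of all genes lacked overlap (2.51 ± 0.61, adjusted p = 0.0174). As that line shares no batch with CD2 YFP, its value depended on the batch terms: it was 1.62 without them (adjusted p = 0.0465), 1.95 without the 6 batch 4 arrays (adjusted p = 0.113) and 3.55 without Lhx3 replicate 2 (adjusted p = 0.104). Lmo3, whose promoter holds the RBPJ letters, was not called with Notch1 ICD (30), at 7.42 and 7.38 (-0.45 ± 0.39, adjusted p = 0.654), or NERT (30), at 8.01 and 7.85 (0.18 ± 0.42, adjusted p = 0.852).

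**Figure D4:**
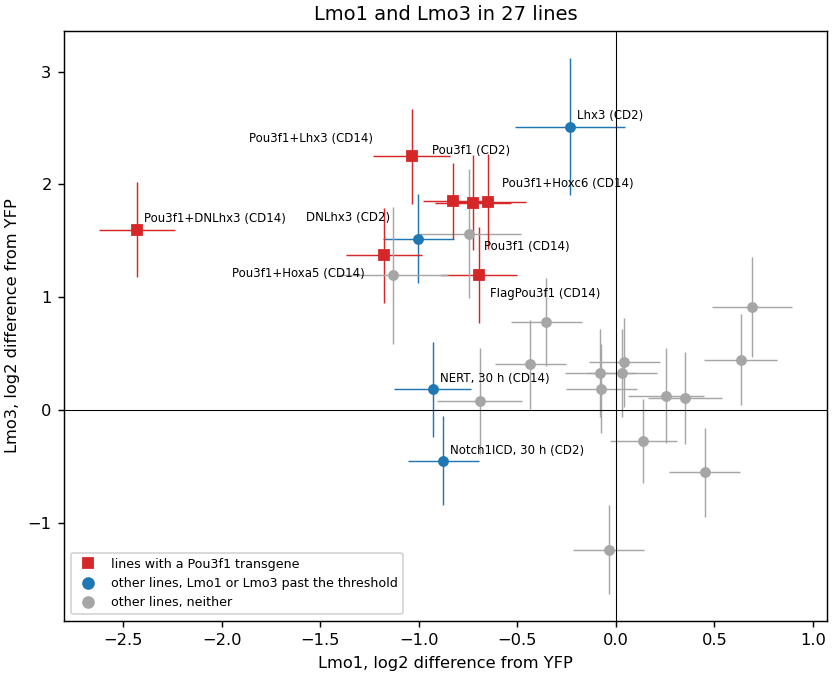
Log2 difference from YFP of Lmo1 (x axis) and Lmo3 (y axis), with standard errors, in 27 lines; red squares are the 7 lines with a Pou3f1 transgene, blue circles other lines where either gene was called, and grey circles the rest. The red squares lie at -2.43 to -0.65 for Lmo1 and 1.20 to 2.25 for Lmo3, while the Notch1 ICD (30) and NERT (30) lines are low in Lmo1 with Lmo3 at -0.45 and 0.18.

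Lmo4, another LIM-only gene, was called only in the 2 lines with Lhx3 and rose in both. It was 11.64 and 11.98 in the Lhx3 line, against 10.56, 10.90, 10.97 and 11.22 in YFP, and 11.88 and 11.81 with Pou3f1 and Lhx3, against 11.01, 11.04, 11.15 and 11.17, with no overlap in either (20.3% and 29.7% of all genes lacked overlap there). The differences were 0.87 ± 0.23 (adjusted p = 0.0275) and 0.74 ± 0.16 (adjusted p = 0.00263). The first call was lost without Lhx3 replicate 2 (1.12, adjusted p = 0.297) and the second without YFP replicate 2 of batch 7 (0.67, adjusted p = 0.0786). In the 25 other lines Lmo4 was within 0.5 of YFP and not called.

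Ldb2, which encodes an adaptor that joins LIM proteins into complexes, rose in 5 lines and fell in 0. CD2 YFP arrays read 7.87, 8.18, 8.23 and 8.37 and CD14 YFP arrays 8.19, 8.23, 8.46 and 8.51. It was 10.10 and 10.00 with Pou3f1 and Hoxc6, higher by 1.84 ± 0.33 (3.58-fold, adjusted p = 0.00014), a call kept without any 1 array. It was 9.51 and 9.67 with Pou3f1 and Lhx3 (DN) (1.38 ± 0.33, adjusted p = 0.00599), 9.39 and 9.49 with Lhx3 (DN) (1.20 ± 0.30, adjusted p = 0.0152), 9.37 and 9.51 with Notch1 ICD (30) (1.20 ± 0.30, adjusted p = 0.00944) and 9.54 and 9.63 with NERT (30) (1.10 ± 0.33, adjusted p = 0.0417).

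All 10 arrays of these 5 lines lay above each YFP array of their reporter, where 16.3% to 49.1% of all genes lacked overlap, and 4 of the 5 calls rest on few arrays. Leaving out 1 array lost the call in 3 cases with Pou3f1 and Lhx3 (DN) (YFP replicates 1 and 2 of batch 6 and its own replicate 2, adjusted p 0.0593 to 0.0873), and in 3 with Lhx3 (DN) (both its arrays and YFP replicate 2 of batch 3, 0.0563 to 0.154). It was lost in 2 with Notch1 ICD (30) (either of its arrays, 0.0581 to 0.109) and in 4 with NERT (30) (either of its arrays or either batch 7 YFP array, 0.146 to 0.267). In the lines with Pou3f1 alone Ldb2 was not called on CD2 (-0.25 ± 0.26, adjusted p = 0.767) or CD14 (0.24 ± 0.33, adjusted p = 0.936).

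**Figure D5:**
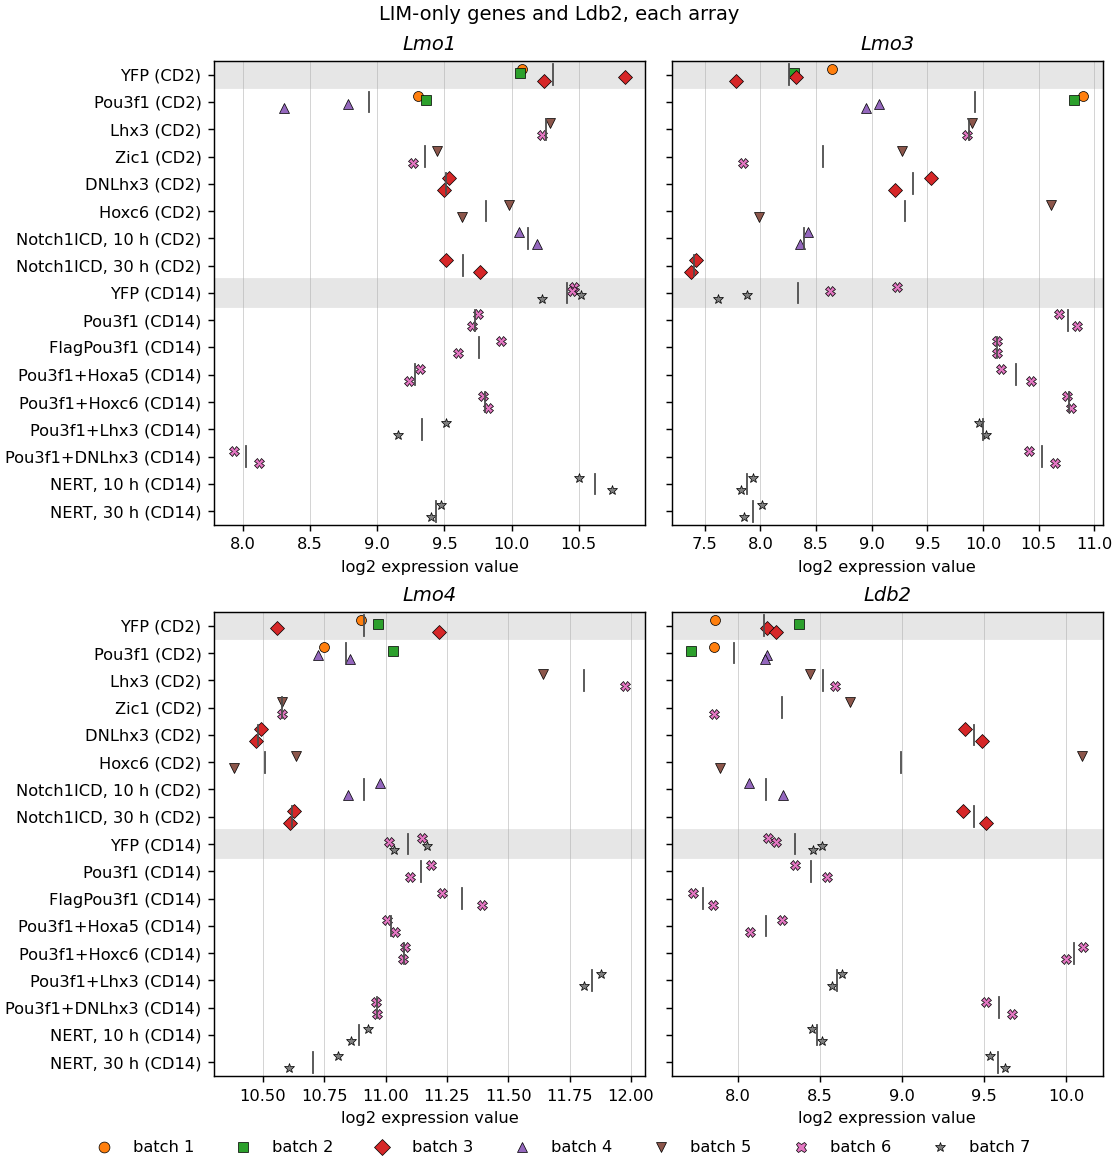
Log2 expression of Lmo1, Lmo3, Lmo4 and Ldb2 in each array of 17 groups, with symbols and colours for batches, a vertical line at each group mean and the YFP groups shaded. Lmo4 lies above YFP at 11.64 to 11.98 in the 2 lines with Lhx3, and Ldb2 at 9.37 to 10.10 in the 5 lines where it was called.

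Lhx1 was lower with Lhx3 than with Lhx3 (DN), both beside Pou3f1 and without it. Beside Pou3f1, 4 of 10 members were called between the 2 forms, against 1.23% of all genes: with Lhx3, Lhx1 was lower by 2.88 ± 0.54 (7.38-fold, adjusted p = 0.00128), Lmo1 higher by 1.39 ± 0.27 (adjusted p = 0.00216), Lmo4 higher by 0.86 ± 0.23 (adjusted p = 0.045) and Lhx3 itself higher by 3.28 ± 0.39. On CD2, without Pou3f1, 3 members were called, against 3.77%: Lhx1 was lower by 4.41 ± 0.61 (adjusted p = 1.84e-05), Lmo4 higher by 1.26 ± 0.25 (adjusted p = 0.00365) and Lhx3 higher by 2.98 ± 0.45. The Lmo4 call beside Pou3f1 was lost without any 1 of its 4 arrays (adjusted p 0.122 to 0.178). The 2 forms were in different batches in both settings, so these differences rest on the batch terms. Of the 7 motor neuron markers, 5 were higher with Lhx3 beside Pou3f1 and 3 on CD2, and 0 lower.

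The Zic1 line shares batches 5 and 6 with the Lhx3 line and so gave a comparison within batches. Lhx3 exceeded Zic1 in 5 members besides Lhx1, which was lower, 6 called of 10 against 2.93% of all genes. Within batch 5 and batch 6 in turn, the Lhx3 line minus the Zic1 line was 1.14 and 0.81 for Isl2, 1.71 and 0.91 for Lhx4, 0.84 and 0.96 for Lmo1, 1.07 and 1.40 for Lmo4, 3.44 and 3.16 for Lhx3, and -1.87 and -0.90 for Lhx1. Fitted differences were 0.98 ± 0.23 for Isl2 (adjusted p = 0.00808), 1.31 ± 0.27 for Lhx4 (adjusted p = 0.00174), 0.90 ± 0.19 for Lmo1 (adjusted p = 0.00333), 1.23 ± 0.16 for Lmo4 (adjusted p = 1.6e-06), 3.30 ± 0.28 for Lhx3 and -1.39 ± 0.38 for Lhx1 (adjusted p = 0.0348). Without either batch 5 array the calls of Isl2, Lhx4 and Lhx1 were lost (0.81, 0.91 and -0.90, adjusted p 0.586 to 0.995), and that of Lmo1 was lost without any 1 of the 4 arrays (adjusted p 0.0857 to 0.122). Zic1 against YFP, which called 0 members, had Lhx1 at 1.07 ± 0.55 and Lmo1 at -1.13 ± 0.28.

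Second transgenes were compared with Pou3f1 alone on CD14. Pou3f1 was 9.14 to 10.33 in the lines with a second gene, against 8.76 to 9.07 with Pou3f1 alone, so its level differed too. Hoxa5 was 11.16 to 11.29 with Pou3f1 and Lhx3 (DN), which has no Hoxa5 transgene, against 9.79 to 9.93 with Pou3f1 alone. Lhx3 (DN) added to Pou3f1 called 3 members, against 2.11% of all genes: Lhx1 rose by 2.96 ± 0.38 (adjusted p = 1.13e-06), Isl1 fell by 1.01 ± 0.15 (adjusted p = 1.14e-05) and Lmo1 fell by 1.70 ± 0.19 (adjusted p = 9.03e-08), all kept without any 1 array. Lhx3 added to Pou3f1 called only Lhx3 (3.55 ± 0.39, adjusted p = 6.31e-07), against 0.502%, with 4 members (Isl2, Lhx3, Lhx4 and Lmo4) at an unadjusted p under 0.05. Pou3f1 with Lhx3 was in batch 7 and Pou3f1 alone in batch 6, so this comparison rests on the batch terms. Hoxa5 called 0 members in limma and 0 with the trend and robust fit, with 2 (Isl1 and Lmo1) at an unadjusted p under 0.05, against 3.45% of all genes.

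Hoxc6 added to Pou3f1 called 3 members, against 8.97% of all genes. Pou3f1 itself was also higher there by 1.39 ± 0.19 (adjusted p = 2.49e-06), at 10.29 to 10.33. The part of that level in the member differences was not tested. Isl2 fell by 0.97 ± 0.23 (adjusted p = 0.00495), Ldb2 rose by 1.60 ± 0.33 (adjusted p = 0.00106) and Isl1 rose by 0.54 ± 0.15 (adjusted p = 0.0153). The Isl1 call was lost without any 1 of the 4 arrays (adjusted p 0.0742 to 0.131) and the Isl2 call without replicate 2 of either line (0.0660 to 0.0726). Between Hoxc6 and Hoxa5 beside Pou3f1 Ldb2 was the only member called, against 0.973% of all genes. It was higher with Hoxc6 by 1.88 ± 0.33 (adjusted p = 0.000455). Pou3f1 was also higher with Hoxc6 by 1.14 ± 0.19 (adjusted p = 0.000183). Hoxa5 was 12.09 to 12.14 with Pou3f1 and Hoxc6, above the 11.00 to 11.01 with Pou3f1 and Hoxa5. With Pou3f1 and Hoxc6, 4 of the 9 motor column genes also rose against YFP, 1 of them the induced Pou3f1 itself, with the retinoic acid enzyme gene Aldh1a2 by 5.26 ± 0.46 and the limb motor column gene Foxp1 by 1.88 ± 0.23, and 3 fell.

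Time of induction separated the Notch-related lines. NERT (30) and NERT (10), arrayed in 1 batch, differed in 5 members, against 3.78% of all genes. At 30 h Lmo1 was lower by 1.18 ± 0.19 (adjusted p = 6.67e-05), Lhx4 lower by 1.09 ± 0.27 (adjusted p = 0.0112), Isl2 lower by 0.97 ± 0.23 (adjusted p = 0.00742), Isl1 lower by 0.50 ± 0.15 (adjusted p = 0.0436) and Ldb2 higher by 1.10 ± 0.33 (adjusted p = 0.0475). Against YFP, NERT (10) called 0 members (0 with the trend and robust fit), with values of 12.59 and 12.51 for Isl1, 12.56 and 12.62 for Isl2 and 10.50 and 10.75 for Lmo1. Except for Lmo1, each call was lost without at least 3 of the 4 single arrays (adjusted p 0.0546 to 0.439).

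Notch1 ICD (30) and (10) differed in 6 members, against 6.41% of all genes, but were arrayed in batches 3 and 4. Isl1 was lower at 30 h by 1.05 ± 0.18 (adjusted p = 0.00012), Isl2 by 1.50 ± 0.28 (adjusted p = 0.000406) and Lmo1 by 1.57 ± 0.24 (adjusted p = 1.74e-05), and Lhx5 was higher by 1.08 ± 0.21 (adjusted p = 0.000695) and Ldb2 by 1.41 ± 0.40 (adjusted p = 0.0258). Without the 6 batch 4 arrays that stand apart, Lmo1 differed by -0.66 (adjusted p = 0.319), Lhx5 by 0.68 (adjusted p = 0.298), Isl2 by -1.09 (adjusted p = 0.0503) and Ldb2 by 2.06 (adjusted p = 0.0939), while Isl1 stayed called. The Ldb2 call was also lost without any 1 of the 4 arrays (adjusted p 0.0708 to 0.0965). The called Lhx3 difference of 1.10 ± 0.35 turned to -0.45 without those 6 arrays and to -0.34 without batch terms, and was lost without any 1 of the 4 arrays (adjusted p 0.0519 to 0.270).

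A few progenitor and V2 interneuron genes rose in the 30 h Notch-related lines. Of 8 progenitor genes 1 was higher with Notch1 ICD (30) and 2 with NERT (30), of 7 V2 genes 2 in each, and of 4 cell cycle genes 0 in each, with 0 lower in these lists. The Notch target Hes5 was higher by 2.18 ± 0.17 with Notch1 ICD (30) and 2.68 ± 0.19 with NERT (30), and the V2 genes Tal1 and Gata3 by 2.89 ± 0.12 and 2.47 ± 0.17, and by 2.74 ± 0.12 and 1.75 ± 0.18. The mean of the 8 progenitor genes was 11.22 to 11.33 in the 4 arrays, against 10.45 to 10.87 in YFP, and that of the 4 measured cell cycle genes 11.48 to 11.67, against 9.54 to 11.10. The mean of the 7 measured V2 genes was 8.35 to 8.73, against 7.67 to 8.16. The part of these cells in the lower Isl1, Isl2 and Lmo1 values was not tested.

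Effects of the same transgene were compared directly between settings. For Pou3f1 the reporter and the batches differed. For Lhx3 and Lhx3 (DN) the reporter, the presence of Pou3f1 and the batches differed together and cannot be told apart. Pou3f1 on CD14 minus Pou3f1 on CD2 called 0 members, against 0.01% of all genes, with 1 (Isl2) at an unadjusted p under 0.05, and the 95% interval of the difference ran from -1.11 to 1.08 for Lmo3 and from -0.40 to 0.60 for Lmo1. Lhx3 added to Pou3f1 minus Lhx3 alone called 0, against 0.11%, with 1 (Lmo3) at an unadjusted p under 0.05. Lhx3 (DN) added to Pou3f1 minus Lhx3 (DN) alone called 0, against 0.125%, with 4 (Isl2, Lhx1, Lmo1 and Lmo3), and intervals from -2.20 to -0.07 for Lhx1 and from -2.92 to -0.59 for Lmo3. The trend and robust fit also called 0 in each. These intervals are wide, so the misses do not show that the effects were alike.

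Fits within the CD14 reporter, and within a batch, each gave more calls than the fit over all arrays in 7 of the 8 CD14 lines. In batch 7 alone, with 4 residual degrees of freedom, Pou3f1 with Lhx3 called 8 members in place of 4, adding Isl1 (-0.35, adjusted p = 0.0364), Isl2 (0.70, adjusted p = 0.00208), Lhx4 (0.82, adjusted p = 0.0017) and Lhx1 (0.71, adjusted p = 0.0158). NERT (30) there called 8 in place of 5, adding Lhx1 (0.78, adjusted p = 0.0086), Lhx5 (0.36, adjusted p = 0.035) and Lmo4 (-0.40, adjusted p = 0.0283). In batch 6 alone, with 6 residual degrees of freedom, Pou3f1 called 3 in place of 1, adding Lmo1 (-0.73, adjusted p = 0.0115) and Isl2 (-0.47, adjusted p = 0.0182). The batch 6 fit called 7 in place of 5 with Pou3f1 and Lhx3 (DN), 7 in place of 6 with Pou3f1 and Hoxc6, 4 in place of 2 with Pou3f1 and Hoxa5, and 3 in place of 1 with Flag;Pou3f1.

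The other LIM genes of the list moved little. Of 11 measured (Lhx2, Lhx6, Lhx8, Lhx9, Lmx1b, Lmo2, Ldb1, Ssbp2, Ssbp3, Ssbp4 and Rlim), 1 pair was higher and 4 were lower among 297 pairs with the 27 lines. Lmo2, a LIM-only gene, fell with Lhx3 (DN) by 0.60 ± 0.18 (adjusted p = 0.0463) and with Notch1 ICD (30) by 0.64 ± 0.18 (adjusted p = 0.0232) and rose with Pou3f1 and Hoxc6 by 0.72 ± 0.19 (adjusted p = 0.0122). Ssbp3, which stabilises LDB proteins, fell by 0.23 ± 0.07 with Notch1 ICD (30) (adjusted p = 0.0416), and its relative Ssbp2 fell by 0.53 ± 0.14 with Pou3f1 and Hoxc6 (adjusted p = 0.0129). Ldb1, the other LDB gene, was called in none of the 27 lines.

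Across the 30 groups with a fitted mean, the genes most like each member by Pearson r were found among all genes, as a description over groups that share batches and controls. They were Syt4 (r = 0.879), Fbxl2 and Cnst for Isl1, Rasgef1c (0.907), Clvs1 and Hecw2 for Isl2, Tshr (0.873), Mcf2 and Tafa1 for Lhx3, Trerf1 (0.772), Mn1 and Ifitm2 for Lhx4, and Cbln4 (0.864), Klhl14 and Rpp25 for Lhx1. For Lhx5 they were Clca2 (0.953), Wfdc1 and Morrbid, for Lmo1 Irx3os (0.881), Irx3 and Irx5, for Lmo3 Grik2 (0.937), Ankrd12 and Nat8f4, for Lmo4 Nxph2 (0.826), Vldlr and Tshr, and for Ldb2 Mllt3 (0.815), Cntnap5b and St3gal1. No member was among the 3 most like another. Between members the r over the same 30 groups ran from -0.77 for Lmo3 and Lhx5 to 0.65 for Lhx3 and Lmo4, with -0.74 for Isl2 and Ldb2. The r values of Lhx5 rest on a low signal.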

How the data were processed

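Total RNA of 68 samples in 31 groups and 8 batches was hybridised to Affymetrix gene arrays. The deposited table holds log2 expression values per transcript cluster, and the submitters' processing notes name RMA and oligo, with no version. RMA scales arrays to a common distribution, yet array medians were 7.57 to 7.84, and 7.08 to 7.09 in batch 0, which therefore may have been normalized apart. Arrays have no read depth, and their number limits the precision.

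Of 35556 clusters, 21789 had 1 symbol in the platform annotation, 1621 had several and 12146 had none, and 21698 were matched to RefSeq by Entrez identifier. The cluster with the highest mean was kept for each of the 999 genes with more than 1, leaving 19938 genes. One linear model with group and batch terms (31 residual degrees of freedom) was fitted to all arrays with limma 3.58.1 in R 4.3.3 and tested with eBayes. It gave 27 comparisons with YFP of the same reporter, 10 of line against line and 3 differences of effects, with Benjamini-Hochberg adjustment over all genes and a threshold of 0.05. Code was tested on simulated data. Tables and plots used Python 3.11.15, pandas 2.3.3, numpy 2.4.6 and matplotlib 3.10.9.

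The text names all 10 members, up to 4 called genes of a list per comparison with the lowest adjusted p, 3 most similar genes per member, induced genes and markers in YFP. Members, lists, tests and motifs were chosen with earlier results of these data known. Over the 27 lines, higher and lower pairs numbered 6 and 31 of 216 for the motor neuron program, 15 and 19 of 243 for motor column genes, 6 and 29 of 189 for motor neuron markers, 5 and 7 of 216 for progenitor genes and 7 and 0 of 189 for V2 genes. They numbered 2 and 1 of 162 for V0, V1 and V3 genes, 0 and 0 of 189 for dorsal genes, 0 and 0 of 108 for cell cycle genes and 1 and 1 of 108 for pluripotency genes. The 9 alternatives, and leaving out each array, are given in the closing section.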

Additional observations from a re-analysis of the deposited data

Results flagged for a closer look

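The arrays of the E3 parental line, which entered no comparison, held some member values above all 4 CD14 YFP arrays, for different members in the uninduced and the induced arrays. The single E3 parental array read 8.78 for Lhx1 (highest YFP array 8.43), 9.77 for Lmo3 (9.23) and 8.88 for Ldb2 (8.51). The lower of the 2 E3 parental induced arrays read 12.84 for Isl2 (12.63) and 10.58 for Lmo1 (10.51). Only values above YFP were looked for, and the share over all genes was not counted, so these are a description. Others lay below YFP, such as Lhx5 at 5.51 and 5.54 in the induced arrays, against 6.56 in the lowest YFP array. The induced arrays are batch 0, whose array medians of 7.08 to 7.09 lie below the 7.57 to 7.84 of the others, so batch and line cannot be told apart.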

How the results depend on the processing

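Of 75 called pairs of a member and a comparison, the direction and call stayed in 75 with clusters averaged, 72 with quantile normalization once more, 69 with a trend and robust estimates, 66 without the 6 batch 4 arrays, 63 within the same reporter and 52 without batch terms. They stayed in 64 with dim genes left out and 38 with same-batch YFP only, where the other pairs could not be tested. Members called lower than YFP numbered 12 rather than 19 without batch terms. For Pou3f1 on CD14, 1 call became 4 within the reporter, 0 with quantile normalization, 0 with trend and robust estimates, 2 without the 6 arrays and 3 with same-batch YFP. For Lhx3, 3 calls became 5 without batch terms and 1 within the reporter. Within the reporter, 8 members were called in each of Pou3f1 with Lhx3, Pou3f1 with Lhx3 (DN) and NERT (30), and with same-batch YFP 8 in the first and 8 in the last. The Lhx3 difference reversed to 0.18 without batch terms and 0.29 without the 6 arrays for Notch1 ICD (10) against YFP, and to -0.34 and -0.45 for Notch1 ICD (30) against (10). Apart from settings that use fewer arrays, the cause was not tested.

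Leaving out 1 array gave 0 to 1 calls for Pou3f1 on CD14, 1 to 4 for Lhx3, 3 to 7 for Lhx3 (DN), 3 to 5 for Pou3f1 with Lhx3 (DN), 3 to 5 for Notch1 ICD (30) and 1 to 5 for NERT (30). Over all lines it gave 17 to 31 members higher and 15 to 24 lower. The r of deviations of same-numbered arrays ran from -0.17 to 0.57 over 15 pairs of groups in batch 3, from -0.14 to 0.16 over 10 in batch 6 and from -0.14 to 0.18 over 3 in batch 7, and was 0.15 for 1 pair in batch 4. As some were below 0, the numbers were not taken to pair samples. With the replicate block within batch, 58 of 66 pairs stayed called and the 3 calls of Lhx3 became 1. With 2 arrays in most groups, small differences could not be resolved.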

Other observations

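The 2 Hoxc6 arrays, both in batch 5, differed in several members. Lmo3 was 7.98 in replicate 1 and 10.61 in replicate 2, Ldb2 was 7.89 and 10.10, Lhx1 was 8.24 and 10.05, and Lhx4 was 10.61 and 9.57. Over the other 200 pairs of same-batch replicate arrays and a member the median gap was 0.127 and the highest 0.847, and 0 exceeded 1. The induced gene Hoxc6 read 9.41 and 9.19 in the same arrays, Hoxa5 11.80 and 12.07, and the cell cycle gene Mki67 11.50 and 10.26. The values of Lmo3, Ldb2 and Lhx1 in this line are therefore means of unlike arrays.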
